A study of Mus musculus with 5 samples.

Results

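Hypoxia-inducible genes are transcribed when oxygen is low, and erythropoietin, the hormone that drives red blood cell formation, is the best known of them. The set described here holds 10 genes taken by symbol (Epo, Slc2a1, Ndrg1, Vegfa, Egln1, Egln3, Ankrd37, Bnip3, Adm and Pdk1) with earlier results of these data known, and 10 of 10 were found among the 23022 genes measured. The data are RNA sequencing of poly(A)-selected RNA from 5 mouse livers taken at E18.5, a late embryonic stage shortly before birth. The 4N group has 3 libraries from embryos with a knockout of Hhex, a homeobox gene needed to build the liver, into which tetraploid embryonic stem cells carrying td-Tomato had been injected at the blastocyst stage. The WT group has 2 libraries from normal embryos of the same day. The groups therefore differ in ploidy, in the source of the liver cells, in host genotype and in embryo manipulation, and these cannot be told apart. The labels name neither the number of stem cell lines behind the 3 livers nor the share of cells that the host contributed.

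In animal cells, oxygen is sensed by prolyl hydroxylases of the EGLN family, which mark the alpha subunits of hypoxia-inducible factor (HIF) so that the VHL ubiquitin ligase removes them. When oxygen falls, the alpha subunits persist, pair with ARNT and bind a short core sequence near genes for glucose uptake, glycolysis, mitophagy, vessel growth and red cell formation. Some of these targets, among them Egln1 and Egln3, feed back on the pathway. The fetal liver is both the main source of erythropoietin before the kidney takes over and a site where red blood cells mature.

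The promoter sequences of the members are shown first because the HIF core is the feature that a direct target is read by. Windows of 250 bases before the annotated start were taken from RefSeq (build GRCm38.p6) and matched 9 of the 10 members in 11 windows, since Pdk1 and Vegfa each have a second start. Their windows are numbered by coordinate, so for Vegfa, on the minus strand, the second window is the upstream one. The core was searched as ACGTG and as GCGTG on both strands. Capitals below mark these letters, read 5′ to 3′ on the gene's strand, so that CACGT and CACGC are the cores of the opposite strand. A few genes stand for the range of the set: Slc2a1 and Bnip3, which rose in 4N liver, Egln3, a feedback gene that rose, and Epo, which fell.
Slc2a1, chr4:119108495-119108744, plus strand: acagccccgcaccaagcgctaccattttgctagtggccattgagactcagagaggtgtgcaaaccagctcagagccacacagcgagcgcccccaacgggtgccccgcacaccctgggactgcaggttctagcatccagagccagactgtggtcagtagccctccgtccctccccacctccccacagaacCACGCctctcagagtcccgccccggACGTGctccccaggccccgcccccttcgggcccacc
Bnip3, chr7:138909507-138909756, minus strand: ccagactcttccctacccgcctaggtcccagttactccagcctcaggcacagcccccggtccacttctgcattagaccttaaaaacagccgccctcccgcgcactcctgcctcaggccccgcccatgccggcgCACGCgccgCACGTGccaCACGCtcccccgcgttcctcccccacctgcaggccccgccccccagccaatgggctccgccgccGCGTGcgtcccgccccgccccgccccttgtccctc
Egln3, chr12:54203875-54204124, minus strand: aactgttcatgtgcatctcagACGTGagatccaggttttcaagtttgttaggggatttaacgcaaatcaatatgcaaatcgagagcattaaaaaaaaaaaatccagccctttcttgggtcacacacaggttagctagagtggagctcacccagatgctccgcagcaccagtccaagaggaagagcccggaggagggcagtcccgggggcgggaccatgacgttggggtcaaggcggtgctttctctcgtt
Epo, chr5:137485817-137486066, minus strand: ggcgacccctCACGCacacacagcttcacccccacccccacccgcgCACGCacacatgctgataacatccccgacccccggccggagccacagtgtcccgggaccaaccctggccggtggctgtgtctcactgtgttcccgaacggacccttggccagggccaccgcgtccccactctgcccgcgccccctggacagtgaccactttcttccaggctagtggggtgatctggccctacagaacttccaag

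Bnip3 had the densest window, with 5 cores, 2 of which overlap on opposite strands as CACGTG. Slc2a1 had 1 core of each kind, Egln3 a single ACGTG, and Epo a GCGTG core at 2 places on the opposite strand. At least 1 core stood in 9 of the 11 windows, against 38.6% of all 32851 windows of this length. ACGTG stood in a window of 6 of the 9 matched members and in 16.6% of all windows. The first is a count of genes and the second a share of windows, not matched for G and C, so they are not directly comparable. CACGTG was in 6.02% of all windows. These windows were mostly rich in G and C, with a median of 64.0% against 52.4% over all windows. Among the 9178 windows with at least 60% G and C, 63.8% held a core, and the 6 member windows of that kind held one in 6 of 6. For Vegfa the cores stood only before the downstream start, and its upstream window held none. The matches before the downstream start lie in letters that read as VEGF-A coding sequence, so they do not mark a promoter. They are nevertheless part of the counts of 9 windows and of 6 members above. A match is a description of letters, not a bound site. For Epo the known hypoxia enhancer lies downstream of the gene and outside this window.

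**Figure D1:**
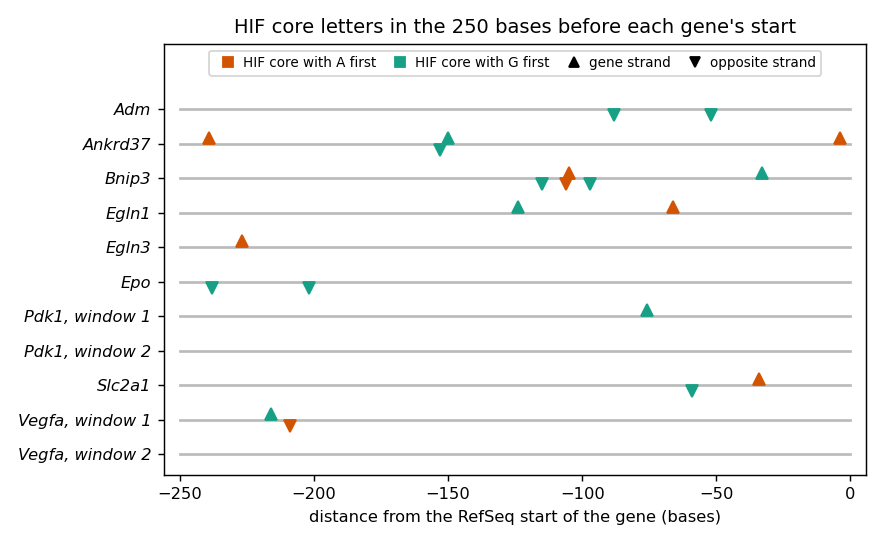
Position of the HIF core letters in the 250 bases before the RefSeq start of 9 members (11 windows); the x axis is the distance from the start in bases, colours separate the core beginning with A from that beginning with G, and triangles point up for the gene's strand and down for the opposite strand. Bnip3 carries 5 cores, and the second windows of Pdk1 and Vegfa carry none. Windows are numbered by coordinate, so the second window of Vegfa, on the minus strand, is the upstream one. The matches in the first Vegfa window lie in coding sequence.

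Per-library values are not part of this account, because the data used are the authors' comparison of the groups. It gives each gene a mean normalized count over all libraries, a log2 fold change with its standard error (SE), a Wald test and a p adjusted over all 23022 genes. Fold changes are 4N against WT, a direction settled from the standard errors of genes without reads in one group. A gene is said to be called, or to have risen or fallen, at an adjusted p under 0.05. The means of each group were implied from the overall mean and the fold change and have no error of their own, so whether single libraries of the groups overlap is not known. The depth of each library is unknown, and the means over all genes summed to 78112274. As a check of the tissue label, the hepatocyte gene for albumin (Alb) was the most abundant of all genes. In the authors' deposited table Hhex had a log2 fold change of 0.55 (SE 0.33) and was not called.

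Of the 10 members, 7 rose in 4N liver, 1 fell (Epo) and 2 (Vegfa and Ankrd37) did not pass the authors' Wald test (adjusted p under 0.05), with a median log2 fold change of 1.22 beside 0.00 over all genes. Of all genes, 7.94% were called higher and 7.41% lower. Among the 8656 genes that averaged 1000 or more normalized counts, where the test has more power, the shares were 11.9% and 10.3%, and 6 of the 7 members in that range rose. Ndrg1, Slc2a1 and Adm rose more than 6-fold, and Pdk1, Bnip3, Egln1 and Egln3 between 2.27-fold and 2.41-fold. Replacing the normal reference by a t distribution with 3 degrees of freedom, which allows for so few libraries, called 0 members. It called 0% of all genes in either direction, with 2513 genes at an unadjusted p under 0.05. Even Tat, with a Wald statistic of -24.3, was not called by it, so it cannot tell the members from other genes.

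**Figure D2:**
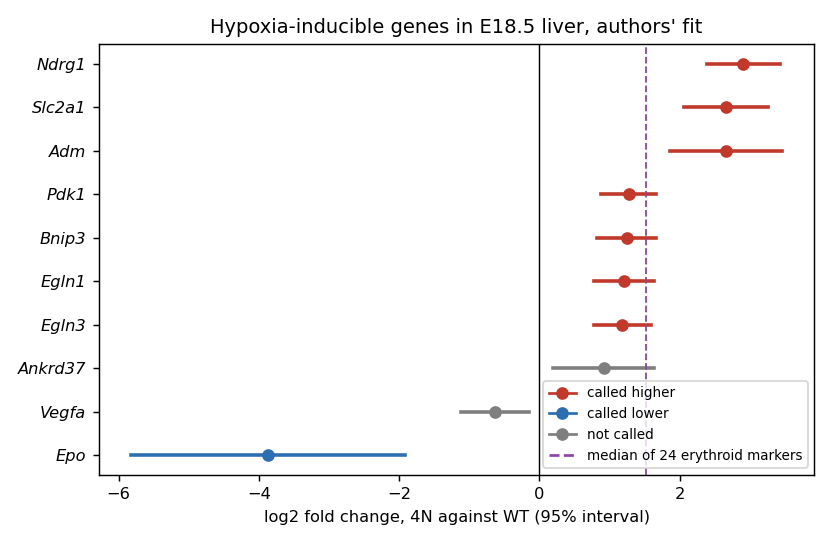
Log2 fold change of each member, 4N against WT, as points with 95% intervals from the authors' standard errors (3 and 2 libraries); colours give the call and the dashed line the median of the erythroid markers, 1.53. Ndrg1, Slc2a1 and Adm lie to the right of that line with their whole intervals, and Epo lies far to the left of 0.

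Erythropoietin, encoded by Epo, is the ligand that keeps red cell precursors alive. Its implied mean was 62.2 normalized counts in WT liver and 4.25 in 4N liver, so both levels rest on few reads. In the authors' deposited table its log2 fold change was -3.87 (SE 0.99 and, by the Wald test, adjusted p = 0.0014), which is 14.6-fold lower with a 95% interval of 3.79-fold to 56.5-fold. The fall kept its call in the test against a 1.5-fold change (adjusted p = 0.024). With the t reference it lost the call (adjusted p = 0.42), as every called gene did. The range over its alternatives was 1.8e-07 to 0.42. A minimum mean of 50 removes Epo, whose overall mean was 27.4. In the GENCODE M21 annotation 1 transcript of Epo runs on over the neighbouring genes Pop7 and Gnb2. Neither neighbour was called in the authors' deposited table (-0.62, SE 0.29, and 0.13, SE 0.30). On the opposite strand Gigyf1, Gm8066, Gm17112 and 9130604C24Rik also overlap the Epo gene, and none of them was called. Whether the counting used strand is not stated in the sources used here.

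The erythropoietin receptor and part of its response were higher while the ligand was lower. Of 16 genes of the receptor, its signalling and its response, 4 rose and 0 fell by the authors' Wald test, also 4 and 0 at an unadjusted p under 0.05. Of all genes 7.94% were called higher and 7.41% lower, and of those that averaged 1000 or more, as 14 of the 16 did, 11.9% and 10.3%. The median log2 fold change was 0.24. With all values recentred on the median of the erythroid markers, 0 of the 16 were called higher and 11 lower, against 1.51% and 64.2% of all genes. The authors' deposited table gave 1.00 (SE 0.35) for the receptor Epor and 1.28 (SE 0.32) for Cish, a feedback inhibitor of the STAT5 signal. In the same table the survival gene Bcl2l1 stood at 1.55 (SE 0.27) and the kinase gene Pim1 at 1.49 (SE 0.30). In the authors' deposited table the signal transducers Jak2 (0.26, SE 0.26), Stat5a (-0.05, SE 0.23) and Stat5b (0.16, SE 0.21) did not pass there. Neither did Erfe, the erythroblast hormone that restrains hepcidin (-0.81, SE 0.42, in the authors' deposited table).

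Markers of erythroid cells moved with these genes. Of 24 measured, 23 rose and 0 fell (also 23 and 0 at an unadjusted p under 0.05), with log2 fold changes from 0.23 to 3.91, a median of 1.53, a summed implied level 3.25 times higher in 4N liver and none at 0. The shares over all genes were 7.94% called higher and 7.41% lower. Among genes that averaged 1000 or more, as the 24 markers did, they were 11.9% and 10.3%. Epor is itself one of the markers. In bulk tissue, more cells of a type and more RNA per cell cannot be told apart. The red cell membrane uses the glucose transporter Slc2a1 in fetal mice, so the erythroid markers are given beside all the members. Only Ndrg1, Slc2a1 and Adm exceeded the median of the erythroid markers, and 2 of the 24 markers exceeded Slc2a1. With all fold changes recentred on that median, 3 members were called higher (Ndrg1, Slc2a1 and Adm) and 2 lower (Epo and Vegfa), against 1.51% and 64.2% of all genes. The values of Egln1, Egln3, Bnip3, Pdk1 and Ankrd37 then turned negative, between -0.25 and -0.61, and were not called. The part of erythroid cells in the rises was not tested.

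Markers of other cell types are given in the same way. Of 16 hepatocyte markers 1 rose, 5 fell and 10 did not pass (1 and 6 at an unadjusted p under 0.05), with a median log2 fold change of -0.21. Their summed level was 1.06 times that of WT and rests on a few abundant genes, among them Afp, the fetal counterpart of albumin, which rose (1.03, SE 0.26, in the authors' deposited table). Tat, an enzyme of tyrosine breakdown, fell the most of them (-5.43, SE 0.22, in the authors' deposited table). Of 14 endothelial markers 0 rose and 1 fell, and of 8 cholangiocyte markers 0 rose and 1 fell (2 and 2, and 1 and 1, at an unadjusted p under 0.05), with summed levels of 0.907 and 0.832 times that of WT. Of 14 stellate and mesenchymal markers 4 rose and 2 fell (6 and 4 at an unadjusted p under 0.05). The 12 macrophage markers gave 4 and 1 (6 and 1 unadjusted). Summed levels were 1.65 and 1.31 times that of WT, in that order. The stellate sum rests mostly on Reln and collagen genes, while Lrat (-0.80, SE 0.29) and Rgs5 (-3.52, SE 0.53) fell in the authors' deposited table. Over all genes 7.94% were called higher and 7.41% lower, and 11.9% and 10.3% of those that averaged 1000 or more. The endothelial and cholangiocyte counts do not stand apart from these shares.

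Slc2a1 encodes GLUT1, the facilitative glucose transporter of red cells, vessels and many fetal tissues. Its implied mean was 4006 normalized counts in WT liver and 25364 in 4N liver. The log2 fold change in the authors' deposited table was 2.66 (SE 0.31 and, by the Wald test, adjusted p = 6.7e-16), 6.33-fold with a 95% interval of 4.17-fold to 9.62-fold. By the Wald statistic this was rank 61 of the rises in the whole table. The antisense genes Gm12867 (2.64, SE 0.44) and Gm12868 (3.14, SE 1.01), which overlap Slc2a1, rose alike in the authors' deposited table. So did the overlapping microRNA gene Mir1957a on the strand of Slc2a1 (3.08, SE 0.64). No source used here says that the counting used strand, so their reads and those of Slc2a1 cannot be told apart.

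Among 11 glucose transporters Slc2a1 was the only one that rose, and 2 fell, beside 7.94% of all genes called higher and 7.41% lower. The 1 rise is that of the member itself and is near the share over all genes. Without Slc2a1, 0 of 10 rose and 2 fell. The hepatocyte transporter Slc2a2 had an implied mean of 30017 in WT and 18732 in 4N liver (-0.68, SE 0.25, in the authors' deposited table). In the authors' deposited table the urate and sugar carrier Slc2a9 fell by 0.79 (SE 0.23) on the log2 scale. Slc2a3, a transporter with high glucose affinity that is also a HIF target, was not called (0.10 with SE 0.24 in the authors' deposited table).

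Ndrg1, a stress-responsive gene induced by hypoxia and by differentiation, had the largest rise among the members. Its implied mean was 2667 normalized counts in WT liver and 20050 in 4N liver. The log2 fold change in the authors' deposited table was 2.91 (SE 0.26, adjusted p = 4.7e-26 by the Wald test), 7.52-fold with a 95% interval of 5.26-fold to 10.7-fold, and its Wald statistic was rank 26 of the rises. Its family did not share the direction throughout. In the authors' deposited table Ndrg2, which is abundant in adult liver, stood at -0.74 (SE 0.31) and Ndrg3 at 0.14 (SE 0.21), and neither was called. Ndrg4 rose from an implied mean of 4.31 to 58.8 normalized counts (3.77, SE 1.11, in the authors' deposited table), a change on few reads.

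Adm encodes adrenomedullin, a peptide that widens vessels and seals the endothelium, and it was scarce. The level implied for Adm went from 48.6 normalized counts in WT to 308 in 4N liver. The authors' deposited table gave 2.66 on the log2 scale (SE 0.41 and, by the Wald test, adjusted p = 3.1e-09), with a 95% interval of 1.86 to 3.46. Vegfa, which encodes the main growth factor of vessels, was far more abundant and did not follow. Vegfa had implied means of 11647 in WT and 7537 in 4N liver (-0.63, SE 0.25, adjusted p = 0.065 by the Wald test, in the authors' deposited table). Centring the values on the genes that averaged 10000 or more brought Vegfa past the threshold (-0.68, adjusted p = 0.041), and centring them on the secreted plasma proteins moved it to -0.11 (adjusted p = 0.79).

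Of 10 receptor genes for VEGF-A and adrenomedullin, 0 rose, 1 fell and 9 did not pass the authors' Wald test, and the median was -0.01. Among all genes 7.94% were called higher and 7.41% lower, so these counts do not set the receptors apart. At an unadjusted p under 0.05 the counts were also 0 and 1. The VEGF receptor genes Kdr (0.05, SE 0.27) and Flt4 (-0.00, SE 0.27) were the most abundant of them in the authors' deposited table. Ramp3, which turns the calcitonin receptor-like receptor into an adrenomedullin receptor, fell from an implied mean of 46.9 to 5.91 (-2.99 with SE 1.09 in the authors' deposited table). Of 11 measured HIF-induced secreted factors, 1 rose and 3 fell, with a median of -0.52. Adm was the one that rose. Besides Epo, the copper carrier gene Cp (-1.25, SE 0.35) and Igfbp1, which binds insulin-like growth factors (-0.73, SE 0.21), fell in the authors' deposited table. Without the members Epo, Vegfa and Adm, 0 of 8 rose and 2 fell, with a median of -0.19. The 28 secreted plasma protein genes, which share Trf with this list, had a median of -0.52, with 0 higher and 14 lower. Centred on them, 3 of the 11 secreted factors were called higher and 1 lower, against 26.1% and 3.97% of all genes.

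**Figure D3:**
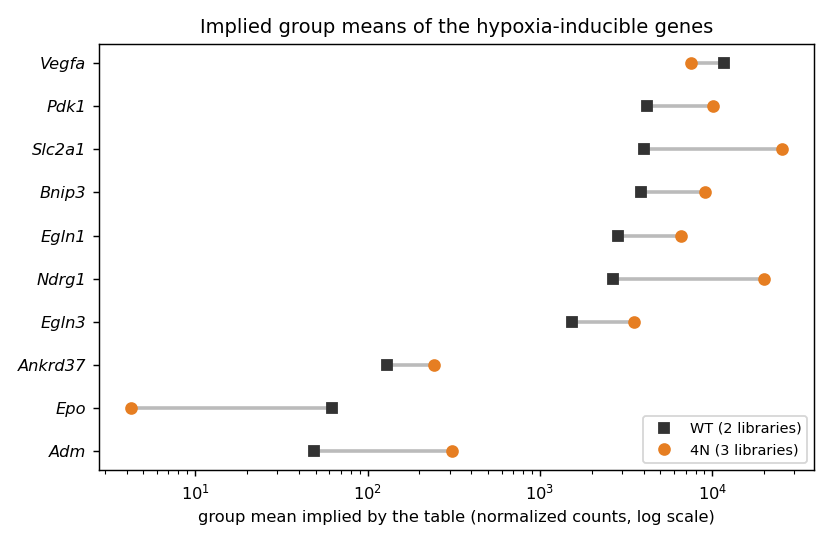
Group means implied by the authors' table for each member, in normalized counts on a log axis; squares are WT (2 libraries) and circles 4N (3 libraries), with no error of their own. Slc2a1 rises from 4006 to 25364 and passes Vegfa, which goes from 11647 to 7537, and Epo drops from 62.2 to 4.25.

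Egln1 and Egln3 encode oxygen-sensing hydroxylases that are themselves HIF targets. The implied mean of Egln1 was 2853 normalized counts in WT and 6581 in 4N liver (log2 fold change 1.21, SE 0.22, adjusted p = 9.6e-07 by the Wald test, in the authors' deposited table). That of Egln3 was 1545 and 3506 (1.18, SE 0.21, adjusted p = 5.5e-07 by the Wald test, in the authors' deposited table). Both were past 0 with their whole 95% intervals, 0.78 to 1.63 and 0.77 to 1.59, and both missed the test against a 1.5-fold change (adjusted p = 0.079 for each). Egln2, the paralog that hypoxia is not known to induce, had a value of -0.10 (SE 0.28) in the authors' deposited table. Per kilobase of the principal transcript, Egln2 made up 62.1% of the summed implied level of the 3 hydroxylases in WT and 40.1% in 4N liver, while Egln1 went from 21.9% to 34.8% and Egln3 reached 25.1%. Egln2 was thus first in both groups, and these shares carry no error.

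The rest of the oxygen-sensing machinery split between its alpha subunits. Of 17 genes, Egln1 and Egln3 included, 4 rose, 1 fell and 12 did not pass, with a median of 0.33. Without those 2 members, 2 of 15 rose and 1 fell, with a median of 0.19. Of all genes 7.94% were called higher and 7.41% lower. Among genes that averaged 1000 or more, as 16 of the 17 did, the shares were 11.9% and 10.3%. The counts without the members are near these shares. Hif3a, whose product includes forms that restrain the other alpha subunits, rose from an implied mean of 2474 to 16925 (2.77, SE 0.19, adjusted p = 8.4e-48 by the Wald test, in the authors' deposited table). Epas1, which encodes HIF-2 alpha, the main activator of Epo, fell from 11280 to 5751 (-0.97, SE 0.19, adjusted p = 1.3e-05 by the Wald test, in the authors' deposited table). Hif1a did not pass (-0.34, SE 0.26), nor did Arnt (0.38, SE 0.20), Vhl (0.19, SE 0.25) or the asparaginyl hydroxylase gene Hif1an (0.33, SE 0.21), all in the authors' deposited table. Cited2, a HIF target that competes with HIF for coactivators, rose (0.79, SE 0.22, in the authors' deposited table). Per kilobase of the principal transcript, Hif3a made up 28.4% of the summed level of the 3 alpha subunits in WT and 82.2% in 4N liver, and Epas1 51.8% and 11.2%. This order of the alpha subunits concerns transcripts, whereas oxygen acts mainly on their proteins. Of 12 factors reported to act on the Epo gene, 0 rose and 2 fell (1 and 3 at an unadjusted p under 0.05), against 7.94% and 7.41% of all genes. Those that fell were Epas1 and the repressor gene Gata3 (-2.30, SE 0.85, in the authors' deposited table), and the median was -0.28.

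Pdk1 encodes a kinase that switches off the pyruvate dehydrogenase complex in the mitochondrion and so keeps pyruvate from becoming acetyl-CoA. The implied mean of Pdk1 was 4179 normalized counts in WT and 10092 in 4N liver (1.27, SE 0.20, adjusted p = 5.8e-09 by the Wald test, in the authors' deposited table), 2.41-fold with a 95% interval of 1.85-fold to 3.16-fold. It was the only 1 of 12 genes of the pyruvate dehydrogenase complex, its kinases and its phosphatases to be called. Of all genes 7.94% were called higher and 7.41% lower, so this count does not set the list apart. Without Pdk1, which is itself a member, 0 of 11 rose and 0 fell. In the authors' deposited table the paralogs Pdk2 (-0.10, SE 0.29), Pdk3 (0.21, SE 0.27) and Pdk4 (0.40, SE 0.25) were not called. The subunit genes Dld (-0.57, SE 0.24) and Pdhb (-0.08, SE 0.18), the most abundant of the list, were not called there either. Per kilobase of the principal transcript, Pdk1 was 25.9% of the summed level of the 4 kinases in WT, behind Pdk2 at 37.4%, and 43.8% in 4N liver, ahead of Pdk2 at 24.5%. The paralog differences were not tested, since the fits of single genes give no covariance.

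Part of the HIF targets of glucose metabolism and transport rose. Of 22, Slc2a1 and Pdk1 included, 14 rose, 0 fell and 8 did not pass the authors' Wald test (19 higher and 0 lower at an unadjusted p under 0.05), beside 7.94% of all genes called higher and 7.41% lower. Among genes that averaged 1000 or more, as 18 of the 22 did, those shares were 11.9% and 10.3%. The log2 fold changes of the list were positive in 22 of 22, and the median was 0.85. Without those 2 members 12 of 20 rose and 8 did not pass, with a median of 0.76. Hexokinase 2 (Hk2), which traps glucose in the cell, went from an implied mean of 499 to 1810 (1.86, SE 0.26, in the authors' deposited table). The glycolytic mutase Pgam1 went from 6619 to 21528 (1.70, SE 0.23, in the authors' deposited table), a value that is uncertain where reads are shared with its processed pseudogenes. After recentring on the erythroid markers, 1 of the 22 was called higher and 13 lower, against 1.51% and 64.2% of all genes.

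Bnip3 encodes a receptor on the outer mitochondrial membrane that marks mitochondria for removal. Its implied mean was 3839 normalized counts in WT and 9092 in 4N liver (1.24, SE 0.22, adjusted p = 3.3e-07 by the Wald test, in the authors' deposited table), 2.37-fold with a 95% interval of 1.77-fold to 3.18-fold. Its paralog Bnip3l, which clears mitochondria from maturing red cells, rose less in the authors' deposited table (0.82, SE 0.21), and the difference between them was not tested. Ankrd37, an ankyrin repeat gene known as a HIF-1 target, did not pass. The implied means were 130 in WT and 244 in 4N liver (0.92, SE 0.37, adjusted p = 0.074 by the Wald test, in the authors' deposited table). Centring on the secreted plasma proteins brought it past the threshold (1.43, adjusted p = 8.2e-04). Ankrd37 overlaps Lrp2bp and Ufsp2 on the opposite strand in GENCODE M21, and neither was called.

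Of 27 further HIF targets with roles in mitophagy, matrix, signalling and histone demethylation, 12 rose, 2 fell and 13 did not pass, with a median of 0.64. That count includes Bnip3, Ndrg1 and Ankrd37, and it was 10 higher and 2 lower of 24 without them. Of all genes 7.94% were called higher and 7.41% lower. Among genes that averaged 1000 or more, as 23 of the 27 did, the shares were 11.9% and 10.3%. Recentred on the erythroid markers, 3 of the 27 were called higher and 17 lower, against 1.51% and 64.2% of all genes. The collagen-modifying enzyme gene Plod2 rose from an implied mean of 457 to 2392 (2.39, SE 0.37), and Hmox1, which breaks down heme, from 4636 to 12493 (1.43, SE 0.22), both in the authors' deposited table. Insig2, which holds back sterol synthesis, fell from 5819 to 1600 (-1.86, SE 0.24), and the lipoprotein receptor gene Vldlr went down by a smaller amount (-0.88, SE 0.30), both in the authors' deposited table. These lists were chosen with results of the same data known and are not independent evidence of their direction.

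**Figure D4:**
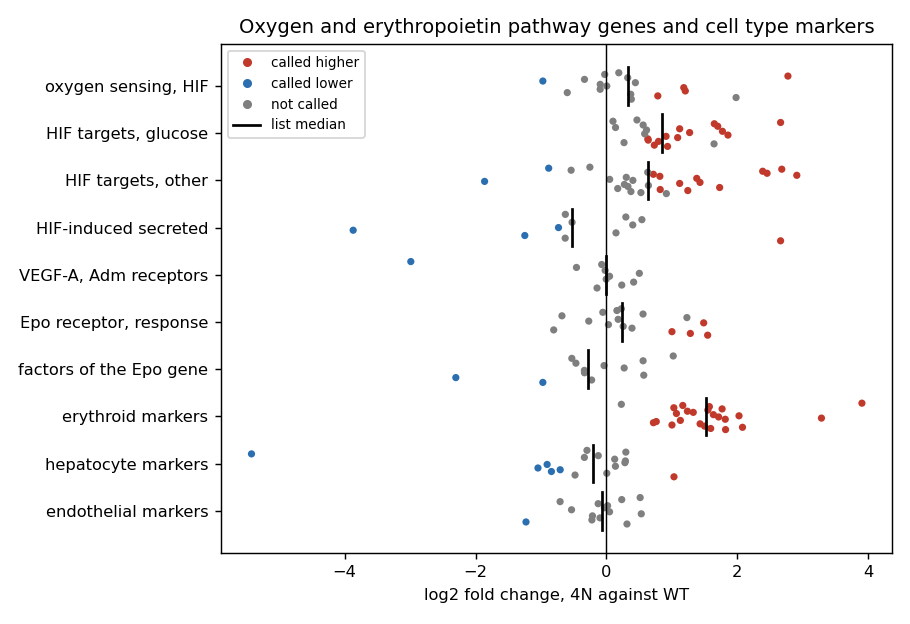
Log2 fold change, 4N against WT, of each gene in 7 pathway lists and 3 lists of cell type markers; each point is a gene coloured by its call and the black bars are list medians. The glucose-related HIF targets lie at or right of 0 with a median of 0.85, the secreted factors spread to both sides with a median of -0.52, and the erythroid markers have the highest median, 1.53.

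Set against the whole table, the members took up different places in abundance and change. By fold change Ndrg1, Slc2a1 and Adm stood at the 95.3, 94.8 and 94.8 percentile of all genes, Epo at the 2.38 percentile and Vegfa at the 22.3 percentile. The standard errors of the 7 members that averaged 1000 or more ran from 0.20 to 0.31, around the median of 0.24 for genes of that abundance. With the stricter null of a 1.5-fold change, 5 members were called higher (Adm, Bnip3, Ndrg1, Pdk1 and Slc2a1) and 1 lower (Epo), against 2.26% and 2.55% of all genes. With centring on the genes that averaged 10000 or more the counts were 7 and 2, against 7.22% and 8.34%. With centring on the secreted plasma proteins they were 8 and 1, against 26.1% and 3.97%. The share of all calls that were higher was 51.7% as deposited, 86.8% after the plasma protein recentring and 2.30% after the erythroid one.

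**Figure D5:**
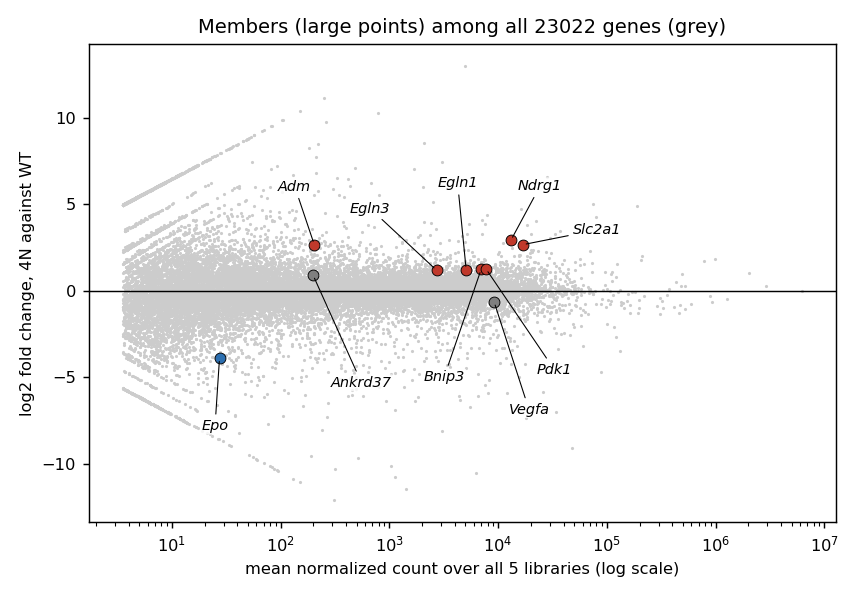
Log2 fold change, 4N against WT, against the mean normalized count over all 5 libraries (log axis) for all 23022 genes in grey and the members as large points coloured by call (red higher, blue lower, dark grey not called). Epo lies among genes of low mean at -3.87, and Ndrg1 and Slc2a1 lie above most genes of similar mean.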

How the data were processed

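Poly(A)-selected libraries of 3 4N and 2 WT livers were compared by the authors, on build GRCm39 per the submitters' processing notes. How reads were aligned and counted is not given in the sources used here. In the 1 table deposited by the authors, per the file headers the values are a mean signal (normalized counts over all libraries), log2 fold changes with standard errors on the log2 scale, the Wald statistic as a score, and p-values with adjusted p-values, under column names that are those of DESeq2. The p-values were checked to be normal tails of the statistic and the adjusted ones their Benjamini-Hochberg adjustment over 23022 genes, with 0 values missing.

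The numerator is not named. Genes without reads in one group fit at a floor of 0.5 counts in that group, which sets a lower limit on the standard error. Of 247 such genes with negative values, 12 had a standard error below 1.44, the limit for an empty group of 2 libraries, so negative values are lower in the 4N group. Implied group means solve the overall mean, weighted by libraries, with the fold change. 95% intervals use the normal distribution.

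Members and lists were chosen with earlier results of these data known. Named genes were the members, the called oxygen-sensing genes with Hif1a, Epas1, Arnt, Vhl, Egln2 and Hif1an, and in each other list up to 4 called genes per direction by smallest p, or the 2 most abundant where fewer than 2 were called. Paralogs of members, the signal transducers, Erfe, Afp, Tat, the named stellate markers and genes overlapping members were added after their values were seen. 1 gene of the lists is not reported here and was left out of its list. Lists were described by counts and medians without a set test. Lengths came from principal transcripts of GENCODE M21, which describes another build. Promoters came from RefSeq (GRCm38.p6), used for sequence only. The labels do not say whether libraries came from separate litters, so p-values measure the spread between these samples. The alternatives were an adjusted p under 0.01, a null of a 1.5-fold change, a t reference, a minimum mean of 50, Benjamini-Yekutieli adjustment and 3 recentrings. The share of called genes among those with a mean of at least 1000 was added after the data were seen. The calls were tested on simulated data. Work used matplotlib 3.10.9, scipy 1.17.1, pandas 2.3.3 and numpy 2.4.6 in Python 3.11.15.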

Additional observations from a re-analysis of the deposited data

How the results depend on the processing

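No paired analysis was possible because the groups share no replicate number and single libraries were not analysed here, and leaving out a library was not run for the same reason. An adjusted p under 0.01 and Benjamini-Yekutieli adjustment each changed no call of the 10 members, and a minimum mean of 50 changed none of the 9 it kept. The t reference gave 0 members and 0 list genes called higher or lower. The minimum mean of 50 left 0 members and 0 receptor genes lower, since Epo and Ramp3 lie under it. An adjusted p under 0.01 and Benjamini-Yekutieli adjustment each left 8 glucose-related HIF targets higher, 1 of the other HIF targets lower and 0 receptor genes lower. The null of a 1.5-fold change left 1 oxygen-sensing gene higher and 0 lower, 6 glucose-related targets higher, 7 other targets higher and 1 lower, 1 secreted factor lower, 0 receptor genes lower and 1 erythropoietin response gene higher.

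Recentring on genes that averaged 10000 or more gave 2 members and 5 secreted factors lower. Recentring on the secreted plasma proteins gave 10 oxygen-sensing genes higher and 0 lower, 22 other targets higher and 1 lower, 3 secreted factors higher and 1 lower, 2 receptor genes higher and 0 lower, and 12 erythropoietin response genes higher. Recentring on the erythroid markers turned the log2 fold changes of Egln1 (-0.32), Egln3 (-0.34), Ankrd37 (-0.61), Bnip3 (-0.28) and Pdk1 (-0.25) negative. It gave 3 members higher and 2 lower, 1 and 13 oxygen-sensing genes, 1 and 13 glucose-related targets, 3 and 17 other targets, 1 and 9 secreted factors, 0 and 10 receptor genes, and 0 and 11 erythropoietin response genes. That recentring subtracts 1.53 from every value by its construction. The recentring on plasma proteins adds 0.52. Epo rests on an overall mean of 27.4 normalized counts, so its fold has the widest interval of the members.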
